A study of Mus musculus with 6 samples.

Results

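The transcription factors that mark the mesenchyme of the dermis were followed in the skin of tight skin (TSK) mice. The 9 genes were taken by name: Twist1, Twist2, Prrx1, Prrx2, En1, Tbx15, Tbx18, Osr1 and Osr2. All 9 were among the 55291 genes of the deposited tables, and all 9 were among the 19971 genes kept for testing by a filter on low counts. Dorsal skin of 3 TSK mice and 3 wild-type (WT) littermates gave 6 libraries of bulk RNA, 1 for each mouse. Every mouse was of the C57BL/6 strain, was 6 to 8 weeks old by the labels, which name no treatment. TSK mice carry a duplication within Fbn1, which encodes the microfibril protein fibrillin 1, and the mutation was kept by backcrossing to C57BL/6. The skin was taken whole, so each value sums over all cell types of the tissue, and the sources used here do not say how many litters the mice came from.

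Twist1 and Twist2 are basic helix-loop-helix factors that pair with E proteins and bind the E-box, and both act in mesenchyme and in the early dermis. Prrx1 and Prrx2 are paired-type homeodomain factors of limb, face and skin mesenchyme, and En1 is a homeodomain factor whose lineage gives rise to fibroblasts of the dorsal dermis. Tbx15 and Tbx18 are T-box factors, the former best known for the pattern of the dorsal coat and for roles in skeleton and fast muscle fibres, and the latter for dermal papilla precursors and mural cells of vessels. Osr1 and Osr2 are zinc finger factors of connective tissue. The tables were used to ask which of these genes differed in level between TSK and WT skin, and whether paralogues moved alike.

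Total counts per library ranged from 17561453 to 19219814 and overlapped between genotypes. Fbn1, in CPM (counts scaled to 1000000 per library), read 267, 289 and 262 for the WT mice and 1538, 2284 and 2007 for the TSK mice, and its log2 fold change was 2.54 with a standard error (SE) of 0.22 and an adjusted p of 0.00327 by edgeR. Values are listed in the order of mouse 1, 2 and 3 throughout. The labels call all mice female and the study's methods give males. Ddx3y, on the Y chromosome, was at 56.7 to 72.8 CPM in all 6 libraries, and Xist was at 2.57 to 4.58 CPM. TMM factors, which correct for a few abundant genes taking a larger share of a library, spanned 0.823 to 1.03 among WT libraries and 1.06 to 1.13 among TSK libraries. Log2 fold changes are TSK minus WT on the TMM scale unless stated.

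The 250 bases before the start of Twist1, Twist2 and Tbx18 are shown because Twist1 and Tbx18 passed the test described below, Twist2 is the paralogue of Twist1, and the RefSeq start of each coincided with its annotated gene start. They were read from RefSeq on GRCm38.p6, at chr12:33957421-33957670 on the plus strand for Twist1, chr1:91801211-91801460 on the plus strand for Twist2 and chr9:87731261-87731510 on the minus strand for Tbx18. Capitals mark an E-box (CANNTG, the motif bound by TWIST dimers and other helix-loop-helix factors) in the Tbx18 window and a TATA box (TATAAA) in the Twist1 window.
Twist1: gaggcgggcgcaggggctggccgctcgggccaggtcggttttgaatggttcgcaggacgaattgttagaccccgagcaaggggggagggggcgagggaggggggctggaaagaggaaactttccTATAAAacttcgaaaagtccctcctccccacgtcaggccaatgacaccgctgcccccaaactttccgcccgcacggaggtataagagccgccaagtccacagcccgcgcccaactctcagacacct
Twist2: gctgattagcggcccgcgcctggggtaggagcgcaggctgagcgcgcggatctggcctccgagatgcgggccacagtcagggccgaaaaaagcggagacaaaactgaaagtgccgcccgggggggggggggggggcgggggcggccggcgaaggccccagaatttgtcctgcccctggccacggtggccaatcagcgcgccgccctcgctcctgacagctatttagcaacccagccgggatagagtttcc
Tbx18: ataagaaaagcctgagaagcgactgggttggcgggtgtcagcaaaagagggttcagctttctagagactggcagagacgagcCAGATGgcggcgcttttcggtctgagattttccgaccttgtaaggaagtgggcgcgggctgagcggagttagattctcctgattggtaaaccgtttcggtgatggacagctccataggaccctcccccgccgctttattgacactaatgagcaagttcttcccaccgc

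Windows of 6 of the 9 genes were examined, those of Prrx1, Prrx2 and En1 beside those shown. For these latter genes the RefSeq start differed from the annotated gene start, and distances are counted from the RefSeq start. The Prrx2 window, at chr2:30845117-30845366, lay inside the annotated gene, and the Prrx1 and En1 windows overlapped its first bases in each case. Both strands were searched for 4 motifs. An E-box was present in 2 of the 6 windows, with 1 match in Tbx18 (CAGATG, 168 bases before the start) and 2 in En1 (both CACGTG, 175 and 158 bases before the start), against 66.2% of 32851 windows of the same length. None was found in the windows of Twist1, Twist2, Prrx1 and Prrx2. The TATA box occurred in the Twist1 window alone, against 12.4% of all windows, and the homeodomain core TAATTA in the Prrx1 window alone, against 4.84%. The T-box motif TCACACCT, held by 1.12% of windows, had no match in the 6. G and C made up 47.6% (Prrx1) to 70.0% (Prrx2) of the bases, against a median of 52.4% over all windows. CpG dinucleotides numbered 18 in Twist1, 23 in Twist2, 15 in Tbx18, 21 in Prrx2, 19 in En1 and 4 in Prrx1, against a median of 6. A match is a description of the letters and no evidence that a factor binds there.

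Across the 9 genes, 8 had a log2 fold change above 0 and Tbx15 alone was below 0. The median was 1.20, against -0.03 over all genes tested. edgeR's quasi-likelihood test with Benjamini-Hochberg adjustment over all genes called 3 of the 9 higher in TSK, namely Twist1, Prrx1 and Tbx18, where 2.71% of all genes tested were called higher. It called none lower, where 0.681% of genes were called lower, while DESeq2 called 5 members higher, where 5.2% of genes were called higher, and Tbx15 lower, where 1.87% were. An unadjusted p below 0.05 was reached by all 9, against 20.0% of genes. No member passed the thresholds used by the study (adjusted p below 0.01 and fold above 2.5) in edgeR, where 0.29% of genes did. Twist1 passed them in DESeq2, the tool to which the study applied them, where 1.74% of genes did. Because the tissue is whole skin, more cells of a type and more RNA per cell cannot be told apart in any of these values.

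On the deposited CPM scale, every TSK library lay above every WT library for 8 of the 9 genes, an arrangement shared by 29.1% of all genes tested, and 0 were lower without overlap, against 2.58%. After TMM scaling the counts were 7 higher, against 14.1% of genes, and 1 lower (Tbx15), against 10.6%. Prrx2 was the gene that came to overlap. TSK 3 held the highest deposited CPM of 7 of the 9 genes, and WT 2 held the lowest value of 7. The median log2 fold change of the 9 genes was 0.78 with TSK 3 left out. The number of members called higher was 0 without WT 2 and 0 without WT 3, where the share of all genes called higher was 1.09% and 0.218%. It was 2 without TSK 2 and 2 without TSK 3, where the share was 1.57% and 1.58%. The share over all genes was thus also lower in each of these 4 fits than with all libraries.

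**Figure D1:**
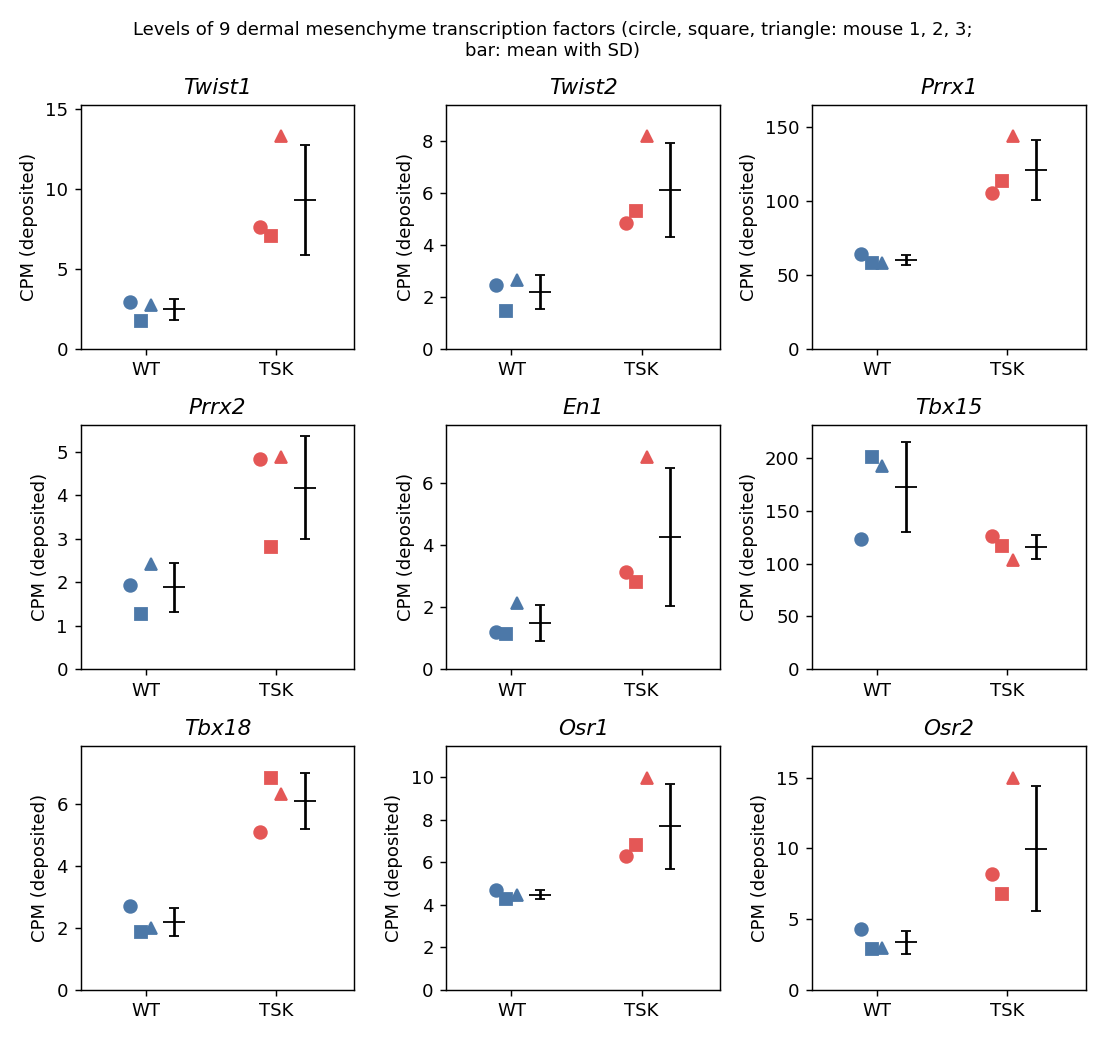
Deposited CPM of each of the 9 genes (linear axis from 0, own range per panel) in the 3 WT and 3 TSK libraries, with 1 point per mouse and bars for mean and SD. TSK points lie above WT points in 8 panels, and in the Tbx15 panel WT 1, at 123 CPM, lies among the TSK values of 104 to 126 CPM.

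Twist1 (chr12:33957671-33959829, plus strand, mm10) had 2.90, 1.70 and 2.75 CPM in WT mice and 7.59, 7.02 and 13.3 CPM in TSK mice. All TSK libraries were above all WT libraries, and TSK 3 was the highest. The means were 2.45 ± 0.653 and 9.29 ± 3.44 CPM (SD, n = 3), resting on 32 to 51 counts per WT library and 135 to 250 per TSK library. Twist1 had the greatest rise of the 9 genes, by 1.65 on the log2 scale (SE 0.29), and edgeR gave an adjusted p of 0.0231. That p was 0.0667 without WT 2 and 0.0853 without WT 3.

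Twist2 (chr1:91801461-91848028, plus strand), a close relative of Twist1, had 2.45, 1.44 and 2.64 CPM in WT and 4.84, 5.31 and 8.16 CPM in TSK. The groups did not overlap, and TSK 3 again held the highest value. The log2 fold change was 1.22 (SE 0.28), and it missed the threshold in edgeR (adjusted p = 0.0536) and passed it in DESeq2 (adjusted p = 0.00533). Of the windows of 50 bases, the read length, in Twist2 transcripts, 45.7% were also present in the antisense gene Gm29100, which had at most 7.09 counts in a library against 27 to 154 for Twist2. Gm29101, within a Twist2 intron on the same strand, had 3 to 26 counts. Whether the counting used strand is not given in the sources used here.

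Prrx1 (chr1:163245119-163313710, minus strand) had 64.2, 57.9 and 57.7 CPM in WT and 106, 113 and 144 CPM in TSK. The WT values lay close together and well below every TSK value. The means were 60.0 ± 3.67 and 121 ± 20.1 CPM, from at least 1050 counts per library, and Prrx1 rose by 0.73 on the log2 scale (SE 0.14), with an adjusted p of 0.0304 by edgeR. Leaving out any of 4 libraries ended the call, with adjusted p of 0.0743 without WT 2, 0.136 without WT 3, 0.0558 without TSK 2 and 0.0663 without TSK 3. The unclassified gene Gm37644 lies within Prrx1 on the same strand without sharing exons and had 14 to 125 counts.

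Prrx2 (chr2:30834972-30881251, plus strand), the paralogue of Prrx1, had 1.94, 1.28 and 2.42 CPM in WT and 4.84, 2.81 and 4.88 CPM in TSK. TSK 2 stood only a little above WT 3, and after TMM scaling it fell below it (2.52 against 2.73 CPM). The log2 fold change was 0.88 (SE 0.31, adjusted p = 0.164), and Prrx2 passed the threshold in none of the 17 alternative analyses.

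En1 (chr1:120602418-120607992, plus strand) had 1.20, 1.12 and 2.14 CPM in WT and 3.13, 2.81 and 6.84 CPM in TSK. The groups did not overlap, and TSK 3 was more than the sum of the other 2 TSK libraries. En1 had low counts, 21 to 39 in WT and 54 to 129 in TSK, and counting alone gives an error of 21.8% on the lowest. The log2 fold change was 1.22 (SE 0.42, adjusted p = 0.150), and it was 0.73 without TSK 3.

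Tbx15 (chr3:99240381-99354259, plus strand) had 123, 201 and 193 CPM in WT and 126, 116 and 104 CPM in TSK. WT 2 and WT 3 were high, and WT 1 lay among the TSK libraries. After TMM scaling the groups just separated, with 121, 245 and 218 CPM in WT and 119, 105 and 92.0 CPM in TSK. Its log2 fold change of -0.88 (SE 0.25) had an adjusted p of 0.0976 by edgeR and 0.0168 by DESeq2. Without WT 1 the edgeR adjusted p was 0.0159, and without any other single library it was 0.141 to 0.285. With library sizes only the log2 fold change was -0.58. Counts were high throughout, at 1956 or more per library, so that counting error was at most 2.26%.

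Tbx18 (chr9:87702800-87731260, minus strand) had 2.71, 1.85 and 2.01 CPM in WT and 5.08, 6.84 and 6.31 CPM in TSK. The groups were well apart, and TSK 2 rather than TSK 3 was highest. Tbx18 rose by 1.20 on the log2 scale (SE 0.20), with an adjusted p of 0.0202 by edgeR, opposite in sign to Tbx15. The p was 0.0662 without WT 2, 0.101 without WT 3 and 0.0574 without TSK 2. An unclassified gene on the opposite strand, D030062O11Rik, accounts for most of the 18.3% of windows of 50 bases that Tbx18 shares with other genes, and it had 0 to 4 counts per library against 34.7 to 131 for Tbx18.

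Osr1 (chr12:9570116-9581500, plus strand) had 4.70, 4.27 and 4.47 CPM in WT and 6.30, 6.82 and 9.99 CPM in TSK. The WT libraries were nearly level, and all TSK libraries were above them. The log2 fold change of 0.50 (SE 0.20) was the lowest of the 8 above 0 and missed the threshold (adjusted p = 0.222). It was 0.29 without TSK 3.

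Osr2 (chr15:35296098-35303305, plus strand) had 4.27, 2.87 and 2.91 CPM in WT and 8.19, 6.76 and 15 CPM in TSK. The groups did not overlap, and TSK 3 stood well above the other TSK libraries. Its log2 fold change of 1.30 (SE 0.30) was second to that of Twist1, with an adjusted p of 0.0549 in edgeR and 0.00219 in DESeq2. The edgeR adjusted p was 0.0355 without TSK 2. It stayed above 0.05 without any other library, at 0.147 without WT 2 and 0.194 without WT 3. The log2 fold change was 0.91 without TSK 3.

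**Figure D2:**
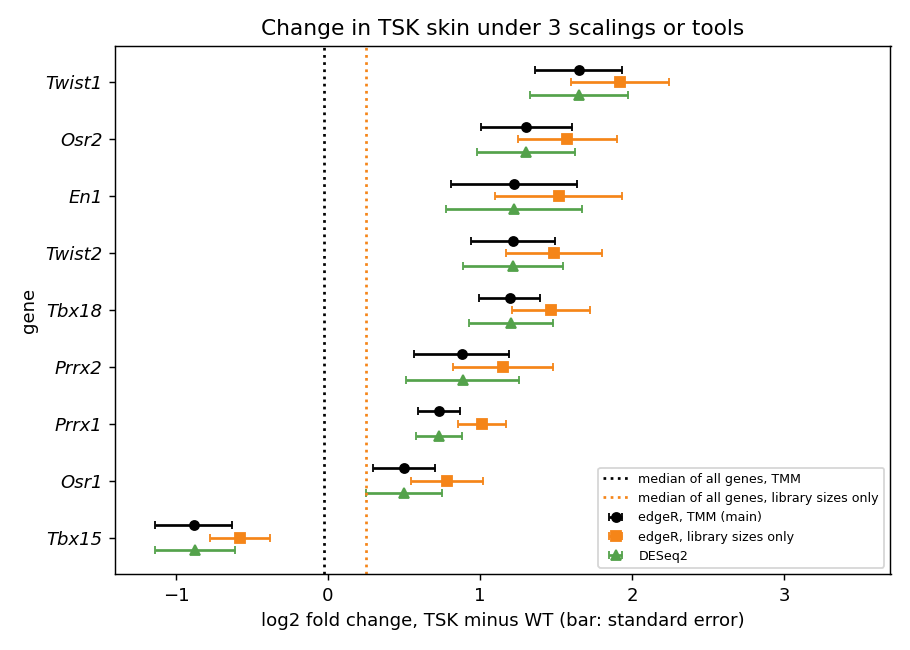
Log2 fold change (TSK minus WT) of each of the 9 genes with its standard error, from edgeR with TMM, edgeR with library sizes only, and DESeq2. Dotted lines mark the median of all genes tested, at -0.03 with TMM and 0.25 with library sizes only, and Tbx15 is the only gene left of 0 in all 3.

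Scaling by library size alone moved the median of all genes to 0.25 on the log2 scale and raised the fold changes of the members with it. The direction of each member was the same under all 17 alternatives. The median over the 9 genes was 1.47 under that scaling.

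Levels of different genes were compared as deposited CPM per kb of exon. In WT skin Tbx15 was the most abundant of the 9, at 46.0 ± 11.4 CPM per kb, followed by Prrx1 at 5.42 ± 0.332, Osr1 at 2.17 ± 0.104 and Twist1 at 1.51 ± 0.401. The ranges of these 4 genes did not overlap from one to the next. Below them, Prrx2 (0.958 ± 0.292), Osr2 (0.926 ± 0.219), Twist2 (0.685 ± 0.203), En1 (0.566 ± 0.218) and Tbx18 (0.463 ± 0.0970) each overlapped with its neighbour in the order, as did Twist1 with Prrx2. In TSK skin Tbx15 (30.8 ± 3.05 CPM per kb) and Prrx1 (10.9 ± 1.82) again led without overlap. Twist1 came next at 5.71 ± 2.12 and overlapped with Osr1 at 3.73 ± 0.968. Osr2, Prrx2, Twist2, En1 and Tbx18 followed from 2.76 to 1.29 CPM per kb, each overlapping with the next.

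Ratios between paralogues within a library do not depend on how libraries are scaled. The log2 ratio of Twist1 to Twist2 counts was 0.25, 0.25 and 0.06 in WT and 0.65, 0.40 and 0.70 in TSK, so that the groups did not overlap and the means differed by 0.40. Tbx15 to Tbx18 was 5.51, 6.77 and 6.59 in WT and 4.64, 4.09 and 4.04 in TSK, a difference of -2.03 without overlap. Osr1 to Osr2 was 0.14, 0.57 and 0.62 in WT and -0.38, 0.01 and -0.59 in TSK, a difference of -0.76 without overlap. Those 3 ratios each had p = 0.1 in a two-sided exact permutation test, which is the smallest value that 3 mice against 3 can give, so that none could reach 0.05. Prrx1 to Prrx2 averaged 5.04 ± 0.46 in WT and 4.89 ± 0.44 in TSK (SD, n = 3, exact permutation p = 0.7), and its difference of -0.16 turned to 0.07 without WT 2 and to 0.06 without TSK 1. With Benjamini-Hochberg adjustment over the 4 ratios, the former 3 had 0.133 and the last 0.7.

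**Figure D3:**
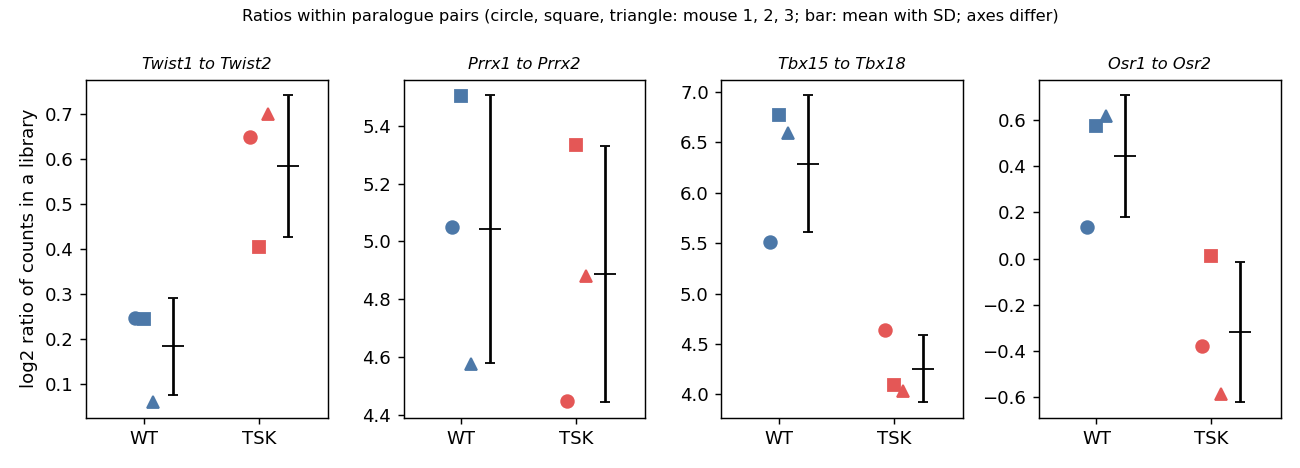
Log2 ratio of counts within each library for the 4 paralogue pairs, with 1 point per mouse and bars for mean and SD (each panel has its own axis). The groups are apart for Twist1 to Twist2, Tbx15 to Tbx18 and Osr1 to Osr2 and mixed for Prrx1 to Prrx2.

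Marker genes of fibroblasts, the cells known to express most of the members, had log2 fold changes of the same sign as 8 of the 9 members. The list held 12 genes, none of them a member. Their summed level was 7017 to 10458 CPM in WT and 21830 to 49514 CPM in TSK, with TSK 3 the highest, all 12 had a log2 fold change above 0, and the median was 0.91. Dpt and Thy1 were called higher by edgeR and 8 of the 12 by DESeq2, and no gene of the list was at 0 in a library. edgeR called Dpt alone without WT 1, WT 2 or TSK 1, and 0 of the 12 without WT 3, TSK 2 or TSK 3. The part of these markers in the differences of the members was not tested. When the mean log2 level of the list was subtracted from each member within each library, 0 of the 9 stayed higher in TSK without overlap, against 0.801% of genes, and 2 were lower without overlap (Tbx15 and Osr1), against 70.0% of genes. The mean of the list itself was higher by 0.96 in TSK.

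On that scale Twist1 was at -5.36, -6.47 and -5.88 in WT and -5.18, -5.50 and -5.17 in TSK. Its TSK mean was higher by 0.62, the largest difference above 0, and the groups overlapped. Differences of Osr2, Twist2, Tbx18 and En1 were 0.25, 0.22, 0.20 and 0.17, and those of Prrx2 and Prrx1 were -0.12 and -0.24, all with overlap. Osr1 differed by -0.50 and Tbx15 by -1.79, both without overlap.

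**Figure D4:**
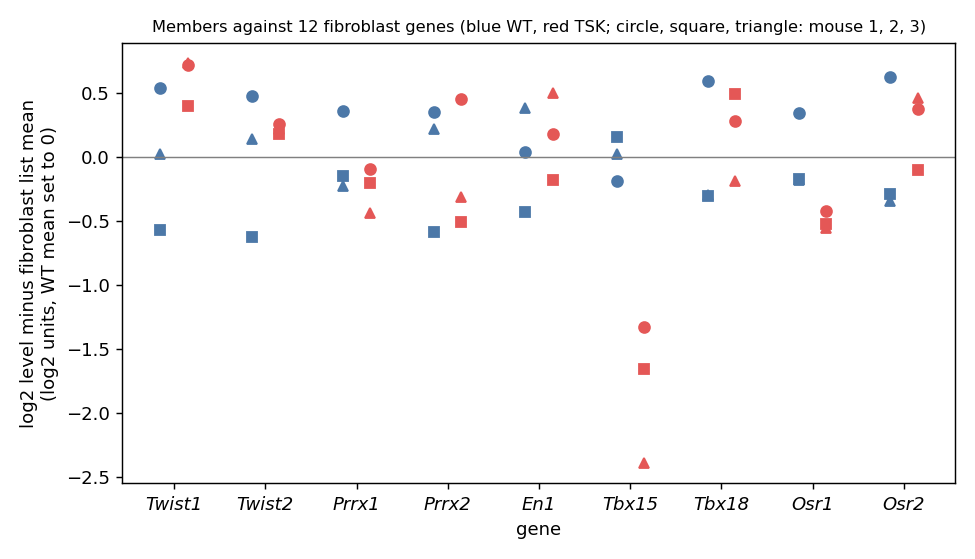
Log2 TMM-scaled level of each of the 9 genes minus the mean of 12 fibroblast genes in the same library, with the WT mean of each gene set to 0 (blue WT, red TSK). Tbx15 and Osr1 lie below the WT values in TSK, and the groups overlap for the other 7.

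Marker lists of other cell types in whole skin were summed in the same way. The 14 adult skeletal muscle genes summed to 154173, 223535 and 211853 CPM for the WT mice and to 151780, 142955 and 134551 for the TSK mice, so WT 2 and WT 3 were high and WT 1 was close to TSK 1. Of the 14, 11 had a log2 fold change below 0, with a median of -0.76. edgeR called none of them. An unadjusted p below 0.05 was reached by 8 lower in TSK and 1 higher, and DESeq2 called 10 lower and 1 higher. Tbx15 minus the mean log2 level of the muscle list was -4.48, -4.50 and -4.41 in WT and -4.71, -4.87 and -4.88 in TSK. The difference was -0.36 without overlap, an arrangement found in 1.03% of genes. The mean of the list itself differed by -0.47 in TSK. On that scale 8 members were higher in TSK without overlap, against 17.2% of genes. The Tbx15 comparison was chosen after the values had been seen, and the part of muscle in the Tbx15 difference was not tested. Of 10 developing muscle genes 7 were called lower, with summed levels of 176 to 323 CPM in WT and 66.1 to 81.4 CPM in TSK.

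**Figure D5:**
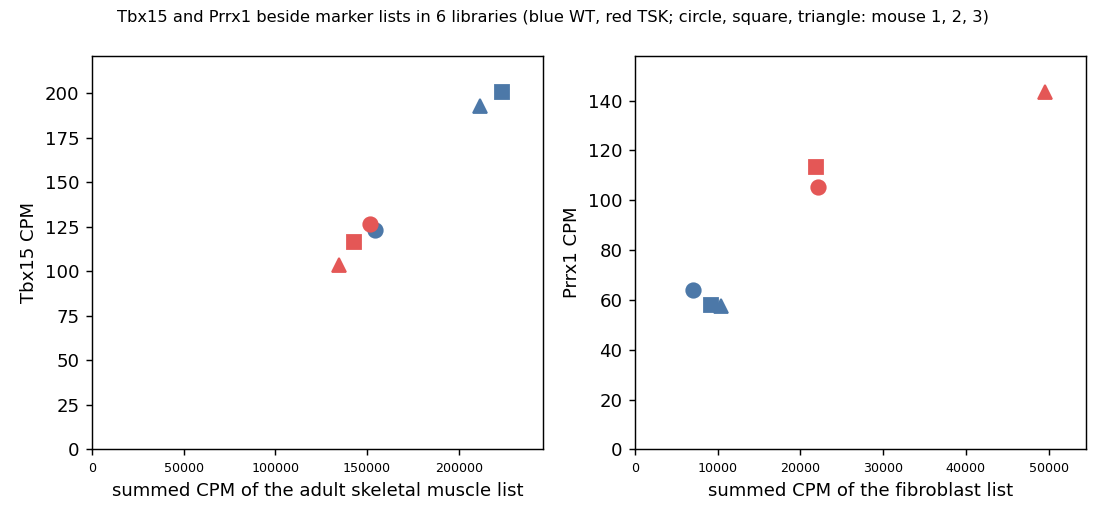
Left, Tbx15 CPM against the summed CPM of 14 adult skeletal muscle genes, and right, Prrx1 CPM against the summed CPM of 12 fibroblast genes, with 1 point per library (blue WT, red TSK). WT 1 lies beside TSK 1 on the left, and TSK 3 stands apart at 49514 CPM on the right.

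Dermal papilla and mural markers were examined because Tbx18 is known in those cells. Summed papilla levels were 57.2 to 72.2 CPM in WT and 102 to 132 CPM in TSK, and edgeR called 1 of 7 tested genes higher, Corin, a protease of papilla cells, with Sox2 at 0 in a library. Of the 7, 5 had a log2 fold change above 0 and 2 below, with a median of 0.40. The 10 mural genes had overlapping sums, a median log2 fold change of 0.55 and 1 call by edgeR, Myh11, which was higher. An unadjusted p below 0.05 was found for 7 of the 10 (6 higher in TSK, 1 lower), and DESeq2 called 5 higher and 1 lower. Their part in the Tbx18 difference was not tested. Median log2 fold changes of the remaining lists were 2.56 for adipocytes, 1.10 for hair follicle epithelium, 0.98 for macrophages, 0.72 for endothelium, 0.54 for Schwann cells and -0.25 for keratinocytes, and edgeR called 3, 3, 0, 2, 1 and 2 of their genes, all of them higher in TSK. Summed adipocyte levels overlapped, at 2984 to 3552 CPM in WT and 3285, 6775 and 3119 CPM in the TSK mice, so that only TSK 2 stood above the WT range. Summed keratinocyte levels overlapped as well, while those of the follicle, macrophage, endothelial and Schwann cell lists were higher in TSK without overlap. Of the 9 macrophage genes, 7 had an unadjusted p below 0.05 and DESeq2 called 4, all higher.

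The 7 tested E proteins and Id proteins, the partners of TWIST factors and the inhibitors that bind E proteins without binding DNA, all had log2 fold changes above 0, with a median of 0.35. Id3 alone was called, with 12.8 ± 0.960 CPM in WT and 32.9 ± 4.91 in TSK and a rise of 1.08 on the log2 scale (SE 0.16, adjusted p = 0.0148 by edgeR), and the number called was 0 without WT 3. The inhibitor Id4 was at 0.82 (adjusted p = 0.0830), and Id2 and Id1 were at 0.31 and 0.26 (adjusted p = 0.310 and 0.393). The E proteins Tcf4, Tcf3 and Tcf12 were at 0.44, 0.35 and 0.11 (adjusted p = 0.0756, 0.320 and 0.686).

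Among 33 other transcription factors of dermis and fibroblasts that were tested, of 40 listed, 28 had log2 fold changes above 0 and the median was 0.56. edgeR called 4 higher and none lower. Ebf1, an early B cell factor also present in mesenchyme and fat precursors, rose from 21.0 ± 1.63 to 76.5 ± 19.6 CPM (1.58, adjusted p = 0.00862), and its relative Ebf2 rose from 7.14 ± 2.36 to 22.7 ± 6.60 CPM (1.39, adjusted p = 0.0336). Lef1, a nuclear effector of Wnt signalling, rose from 2.65 ± 0.803 to 6.81 ± 0.545 CPM (1.11, adjusted p = 0.0299), and Gli2, an effector of Hedgehog signalling, from 7.30 ± 1.08 to 17.0 ± 3.61 CPM (0.95, adjusted p = 0.0342). The number called was 2 without TSK 1 or TSK 2, 1 without WT 2 or TSK 3, and 0 without WT 3. Of the 8 tested relatives among T-box and engrailed genes edgeR called 0, with 3 at an unadjusted p below 0.05 (Tbx3, Tbx4 and Tbx5), DESeq2 called 0, and limma-trend on log2(CPM + 1) called 1, Tbx5.

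For the members other than En1, the tested gene with the most similar pattern over the 6 libraries was found among 17606 genes with a mean of at least 1 CPM, by the root mean square difference of standardized log2 levels. The nearest genes were Asap1 for Twist1 (0.0340), Six5 for Twist2 (0.0737), Fn1 for Prrx1 (0.0557), Slc7a1 for Prrx2 (0.121), Eno3 for Tbx15 (0.0464), Grk5 for Tbx18 (0.0579), Adamtsl1 for Osr1 (0.0885) and Gm42826 for Osr2 (0.0698). Fn1 encodes fibronectin, an abundant matrix protein, and Eno3 encodes the muscle form of enolase. Twist2 ranked 21 among the neighbours of Twist1, and Twist1 ranked 19 among those of Twist2, at a difference of 0.150. The other paralogues were further apart. Osr2 ranked 337 for Osr1, and Osr1 ranked 376 for Osr2. Prrx2 ranked 2160 for Prrx1, and Prrx1 ranked 1091 for Prrx2. Tbx18 ranked 16665 for Tbx15, and Tbx15 ranked 16652 for Tbx18. These are descriptions over 6 libraries of 2 genotypes.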

How the data were processed

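RNA from whole dorsal skin was sequenced by the authors as stranded, ribosomal RNA depleted libraries with single-end reads of 50 bases, 1 library per mouse. Reads were demultiplexed with bcl2fastq 2.19.1.403, aligned with STAR to mm10 and quantified in Partek Flow 11.0 with an Ensembl annotation, per the labels and the study's methods. The authors deposited a table of estimated counts per gene, named as raw, of which 43.3% to 45.4% of non-zero values in a library were whole within 0.001, and CPM values, that is, counts divided by their library total and multiplied by 1000000. Tests had been designed for whole counts, so the estimated counts were rounded first.

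Groups were taken from the genotype label. edgeR 4.0.16 (R 4.3.3) with TMM, filterByExpr and the quasi-likelihood test was run on all genes, two-sided, with Benjamini-Hochberg adjustment and a threshold of 0.05. Each SE was obtained by dividing a fold change by the root of its F value. DESeq2 1.42.0 and limma 3.58.1 were alternatives, with other scalings, other low-count filters, the replicate number as a block, and each library dropped in turn. The pipeline was tested on simulated data. Depth was 17561453 to 19219814 counts per library, and counting errors cover counting only. Paralogue ratios were tested by exact permutation. P-values set the difference between genotypes against the spread between 3 mice per genotype. In edgeR, DESeq2 and limma that spread is estimated partly from other genes. Litter was not in any model.

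The members and lists were chosen with earlier results of these data known. Named genes were all members, Fbn1, list genes past the threshold together with Id1 to Id4, Tcf3, Tcf4 and Tcf12 in any case, up to 2 genes per marker list, genes overlapping a member and the nearest gene by pattern, which for En1 is not reported here. Positions and exon lengths are 1-based from GENCODE M21 on mm10. The single-cell data of the study were not used here.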

Additional observations from a re-analysis of the deposited data

How the results depend on the processing

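Under 17 alternatives the 9 members gave 153 log2 fold changes, of which 0 changed direction, 125 kept their side of the threshold, 19 passed it newly and 9 no longer did. All 9 losses came from leaving out a library. Twist1 passed in 15 of the 17, Tbx18 in 14, Prrx1 in 13, Twist2 and Osr2 in 7 each, Tbx15 in 3, En1 in 2, and Prrx2 and Osr1 in 0. Members called higher, 3 as reported, numbered 5 with library sizes only, 5 with DESeq2's size factors in edgeR, 5 with DESeq2, 5 and 6 with limma-trend on log2(CPM + 1) and log2(CPM + 0.1), 5 with no low-count filter and 0 to 3 on leaving out a library. The share of all genes called higher, 2.71% as reported, was 8.44%, 2.9%, 5.2%, 8.87%, 8.82%, 2.99% and 0.218% to 3.47% in the same order. Members called lower, 0 as reported, numbered 1 with DESeq2, 1 with no filter and 0 to 1 on leaving out a library, each time Tbx15. The share of all genes called lower, 0.681% as reported, was 1.87%, 0.997% and, without WT 1, the fit that called Tbx15, 2.66%. Members past the study's thresholds, 0 as reported, numbered 2 with library sizes only, 1 with DESeq2, 1 and 2 with the limma-trend settings and 1 with no filter, where the share of all genes, 0.29% as reported, was 1.53%, 1.74%, 1.42%, 1.65% and 1.02%. E and Id proteins called, 1 as reported, numbered 3 with library sizes only, 3 with DESeq2, 3 with each limma-trend setting, 2 with no filter and 0 to 2 on leaving out a library. Other dermal factors called, 4 as reported, numbered 10 with library sizes only, 9 with DESeq2, 10 with each limma-trend setting, 8 with no filter and 0 to 6 on leaving out a library. T-box and engrailed relatives called, 0 as reported, numbered 1 with limma-trend on log2(CPM + 1). Their median log2 fold change of 0.22 was -0.60 with DESeq2 and -0.59 with no filter, where 14 genes in place of 8 entered, and -0.07 without TSK 3. Over all genes, edgeR called 678 in either direction, library sizes only 1778, DESeq2 1535, limma-trend 1871 and 1860, no filter 1387, the replicate block 794, and leaving out a library 60 to 1260. The cause of these shifts was not tested.

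Deviations of same-numbered libraries correlated at 0.0112, 0.167 and -0.0938. TSK 1 and TSK 3 were each closer to a WT library of another number, and TSK 2 was closest to WT 2. With 3 libraries per genotype these correlations cannot show whether replicate numbers pair the mice. With the replicate block 5 members were called higher (Twist1, Twist2, Prrx1, En1 and Tbx18) and 2 E or Id proteins, where 3.33% of all genes were called higher. Differences in the Twist1 to Twist2, Tbx15 to Tbx18 and Osr1 to Osr2 ratios kept their direction on leaving out each library, with ranges of 0.34 to 0.49, -2.42 to -1.79 and -0.93 to -0.63. The lowest counts in a library were 21 for En1, 24 for Prrx2 and 27 for Twist2.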
